A study of Mus musculus with 4 samples.

Results

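The granzymes and perforin are the proteins that killer lymphocytes load into their cytotoxic granules. Described here are 8 mouse genes of that group, Gzma, Gzmb, Gzmc, Gzmd, Gzmk, Gzmm, Prf1 and Nkg7, chosen by symbol among the 31053 mouse gene features of a single-cell RNA-seq study of mammary tumours. All 8 symbols were found, each on 1 feature. They were followed in killer cell types that were gated with marker genes, and no member of the group was used in a gate.

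Killing by granule release works in steps. Perforin, encoded by Prf1, forms pores in the target cell membrane and lets granzymes enter. Granzymes are serine proteases with different cleavage preferences. Granzyme B cuts after aspartate and activates caspases, whereas granzyme A is a tryptase that kills by other routes and granzymes C, D, E, F, G and N are rodent relatives of granzyme B. Nkg7 is a membrane protein of the granules that takes part in their release. Natural killer (NK) cells and activated CD8 T cells use these proteins. Only RNA was measured here.

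Mice of the FVB/NJ strain, aged 6 to 8 weeks, had received HER2+ H605 tumour cells in the mammary pad, and the tumours were taken on day 14. The hosts were either wild type (WT) or lacked interleukin-1α (IL1α-/-), so the deletion was in the host, and the labels give no change of that gene in the injected cells. Each genotype had 2 tumours, each with 1 library of 3′ single-cell RNA-seq. The comparison asks how lymphocytes in the tumour differ with and without host interleukin-1α. The labels state that the tumours formed 2 pairs collected on separate days, without tying a replicate number to a day.

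Called cells numbered 3130 to 3865 per library, with a median of 1349 to 4210 unique molecular identifiers (UMIs, counted RNA molecules) per cell. The shallowest library was IL1α-/- 1. Il1a, the deleted gene, had 65 and 108 UMIs in the called cells of the WT hosts and 1 and 0 in those of the IL1α-/- hosts. Of the WT UMIs, 56 and 59 were in macrophage-gated cells. Between 0 and 5 barcodes were shared by any pair of libraries.

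Cells were called CD8 T-like with a UMI of a CD3 chain and of a CD8 chain and none of Cd4 or Trdc, and NK-like with Ncr1 or Klrb1c and no CD3 chain, Trac, Cd4 or Cd8b1. Gamma-delta T-like cells had CD3 and Trdc and no Cd4 or Cd8b1. CD4 T-like cells, with CD3 and Cd4 and no CD8 chain or Trdc, served as lymphocytes that usually carry little of the killing machinery. The CD8 T-like gate held 137 and 248 cells in WT hosts and 851 and 804 in IL1α-/- hosts, which was 3.54% and 6.44% against 27.2% and 24.9% of called cells. The NK-like gate held 726 and 686 against 421 and 335 cells, and the gamma-delta T-like gate 263 and 334 against 96 and 175. With 2 tumours per genotype an exact permutation test over the 6 assignments cannot give a two-sided p below 0.33, which was its value for each of these 3 shares. NK-like cells had no Cd3d, Cd3e, Cd3g or Trac UMI by the gate. Trdc, which the NK-like gate did not exclude, was detected in 294 of 726 and 284 of 686 NK-like cells in WT. In IL1α-/- it was detected in 62 of 421 and 85 of 335. In the IL1α-/- libraries 56.3% and 31.6% of NK-like cells, against 15.6% and 13.3% in WT, rested on a single UMI of the positive marker. Cd8b1, one of the gate's own chains, was detected in 80.3% to 87.9% of CD8 T-like cells of each library, and Trac, the T cell receptor alpha chain that this gate did not ask for, in 55.0% to 80.6%.

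The members lie at 5 places in the mouse genome (GRCm38, GENCODE vM21). Gzma occupies chromosome 13 from 113093825 to 113100981 and Gzmk lies beside it, both on the minus strand, within 132.1 kb. Gzmb (chromosome 14, 56258838 to 56262260), Gzmc (56231441 to 56234656) and Gzmd (56129556 to 56132608) belong to a row of 7 granzyme genes on the minus strand that spans 144.6 kb. Prf1 is on chromosome 10 from 61297833 to 61304680, Gzmm on the same chromosome from 79689020 to 79695261, and Nkg7 on chromosome 7 from 43437073 to 43438249. Levels of Gzma, Gzmb, Gzmc and Prf1 ran differently over the gated types. The stretches just upstream of these 4 members are therefore shown, in the direction of the gene, up to its RefSeq start (GRCm38.p6). Bases inside the GENCODE gene were left off. The stretches are chr13:113100982-113101231 on the minus strand for Gzma, chr14:56262335-56262584 on the minus strand for Gzmb, chr14:56234658-56234907 on the minus strand for Gzmc and chr10:61297586-61297832 on the plus strand for Prf1. That of Gzmb stops at 56262335, short of the GENCODE start at 56262260. Capitals mark the core motif of RUNX factors (TGTGGT) and the T-box motif (AGGTGT), on either strand.
Gzma: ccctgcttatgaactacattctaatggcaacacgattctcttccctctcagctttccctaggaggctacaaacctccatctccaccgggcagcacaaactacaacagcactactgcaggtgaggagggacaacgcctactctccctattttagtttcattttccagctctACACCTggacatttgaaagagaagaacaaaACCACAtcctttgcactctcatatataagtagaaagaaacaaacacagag
Gzmb: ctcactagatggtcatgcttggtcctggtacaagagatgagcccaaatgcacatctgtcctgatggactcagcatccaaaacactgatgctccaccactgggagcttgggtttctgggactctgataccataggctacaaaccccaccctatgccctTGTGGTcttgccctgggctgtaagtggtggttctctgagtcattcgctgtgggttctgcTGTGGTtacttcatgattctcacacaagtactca
Gzmc: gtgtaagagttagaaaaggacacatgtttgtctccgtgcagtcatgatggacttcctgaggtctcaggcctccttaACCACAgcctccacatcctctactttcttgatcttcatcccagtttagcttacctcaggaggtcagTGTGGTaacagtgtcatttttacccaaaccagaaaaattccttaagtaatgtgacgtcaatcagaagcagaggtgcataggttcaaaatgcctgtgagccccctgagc
Prf1: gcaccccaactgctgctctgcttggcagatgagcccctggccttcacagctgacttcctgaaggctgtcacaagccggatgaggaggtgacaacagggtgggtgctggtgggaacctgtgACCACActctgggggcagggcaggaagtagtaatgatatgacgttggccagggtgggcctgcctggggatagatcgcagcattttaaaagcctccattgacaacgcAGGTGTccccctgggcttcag

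The 250 bases before the RefSeq start of 7 members were searched. Gzmk was left out because its window lies within the annotated Gzmk gene itself. The RUNX core was present in each of the 7, and in 14.1% of all 32851 RefSeq promoters cut to the same length. Counted from the RefSeq start, Gzmb held it 93 and 34 bases upstream, and Gzmc 174 and 108 bases upstream. The RefSeq start of Gzmb lies upstream of its GENCODE start, so distances from the latter are larger. The T-box motif was present in 3 members, Gzma, Prf1 and Nkg7, and in 11.8% of all promoters. The Nkg7 match lies 14 bases before the RefSeq start, in a part of the window that is inside the GENCODE gene. TGANTCA, a motif of AP-1 factors, was found in Gzmb alone among these members, against 6.75% of all promoters, and TTCNNNGAA, a motif of STAT factors, in Gzmm and Nkg7, against 7.02%. A match says only that these letters are there. Gzmd shares sequence with its neighbours: of the 50-base words in the last 400 bases of its transcript, 13.1% occur in another granzyme transcript, whereas none of those of Gzma, Gzmb, Gzmc, Gzmk, Gzmm, Prf1 or Nkg7 do. How reads that match several genes were counted is not given in the sources used here, so the Gzmd counts are uncertain to that extent.

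Gzma was highest in NK-like cells. Levels are given as CPM, the UMIs of a gene in all cells of a gate in a library, scaled to the same total in each. In NK-like cells Gzma stood at 1566 and 3052 CPM in the WT hosts and at 3051 and 5278 CPM in the IL1α-/- hosts. In gamma-delta T-like cells it stood at 392 and 658 CPM in WT and 435 and 1012 CPM in IL1α-/-. Much of that lay in few cells: 5 cells held 51.5% and 33.5% of these UMIs in WT and 82.5% and 62.1% in IL1α-/-. A single cell of IL1α-/- 2 held 233 of the 594 UMIs, and without it the level was 660 CPM. In each library the gamma-delta T-like cell with the most Gzma had no Cd3e UMI, so it passed the gate on another CD3 chain. These cells held 4 and 22 UMIs of the NK marker Ncr1 in WT and 1 and 25 in IL1α-/-. How far NK cells that passed this gate account for its Gzma was not tested. In CD8 T-like cells Gzma was 1.83 and 174 CPM in WT and 32.0 and 21.1 CPM in IL1α-/-. The order NK-like, gamma-delta T-like, CD8 T-like held within each of the 4 libraries. Of the 27701 Gzma UMIs in called cells, 72.4% were in the NK-like gate, 8.58% in the gamma-delta T-like gate and 1.37% in the CD8 T-like gate.

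Type contrasts were tested in 1 edgeR quasi-likelihood model over 12 sums of 3 types and 4 libraries, with the library as a block and p-values adjusted over 8988 genes (Benjamini-Hochberg). Between NK-like and CD8 T-like cells 22.1% of all genes passed, with 10.5% of all genes higher in NK-like cells, and of the 6 members tested 4 passed, each higher in NK-like cells. Gzma was higher by 6.00 on the log2 scale (SE 0.54, adjusted p = 7.57e-07) and Prf1 by 1.94 (SE 0.28, adjusted p = 1.24e-04), each in 4 of 4 libraries. Between gamma-delta and CD8 T-like cells, where 8.29% of all genes passed, Gzma was higher by 3.72 (SE 0.52, adjusted p = 2.68e-04) and Nkg7 was the other member to pass. Between NK-like and gamma-delta T-like cells, where 3.74% passed, Gzma was higher in NK-like cells by 2.28 (SE 0.44, adjusted p = 0.00715) in edgeR, but the adjusted p was 0.0927 with DESeq2 and 0.0705 without IL1α-/- 1. That contrast also called Prf1, at 1.64 (SE 0.29, adjusted p = 0.00319), and the sparse Gzmd.

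**Figure D1:**
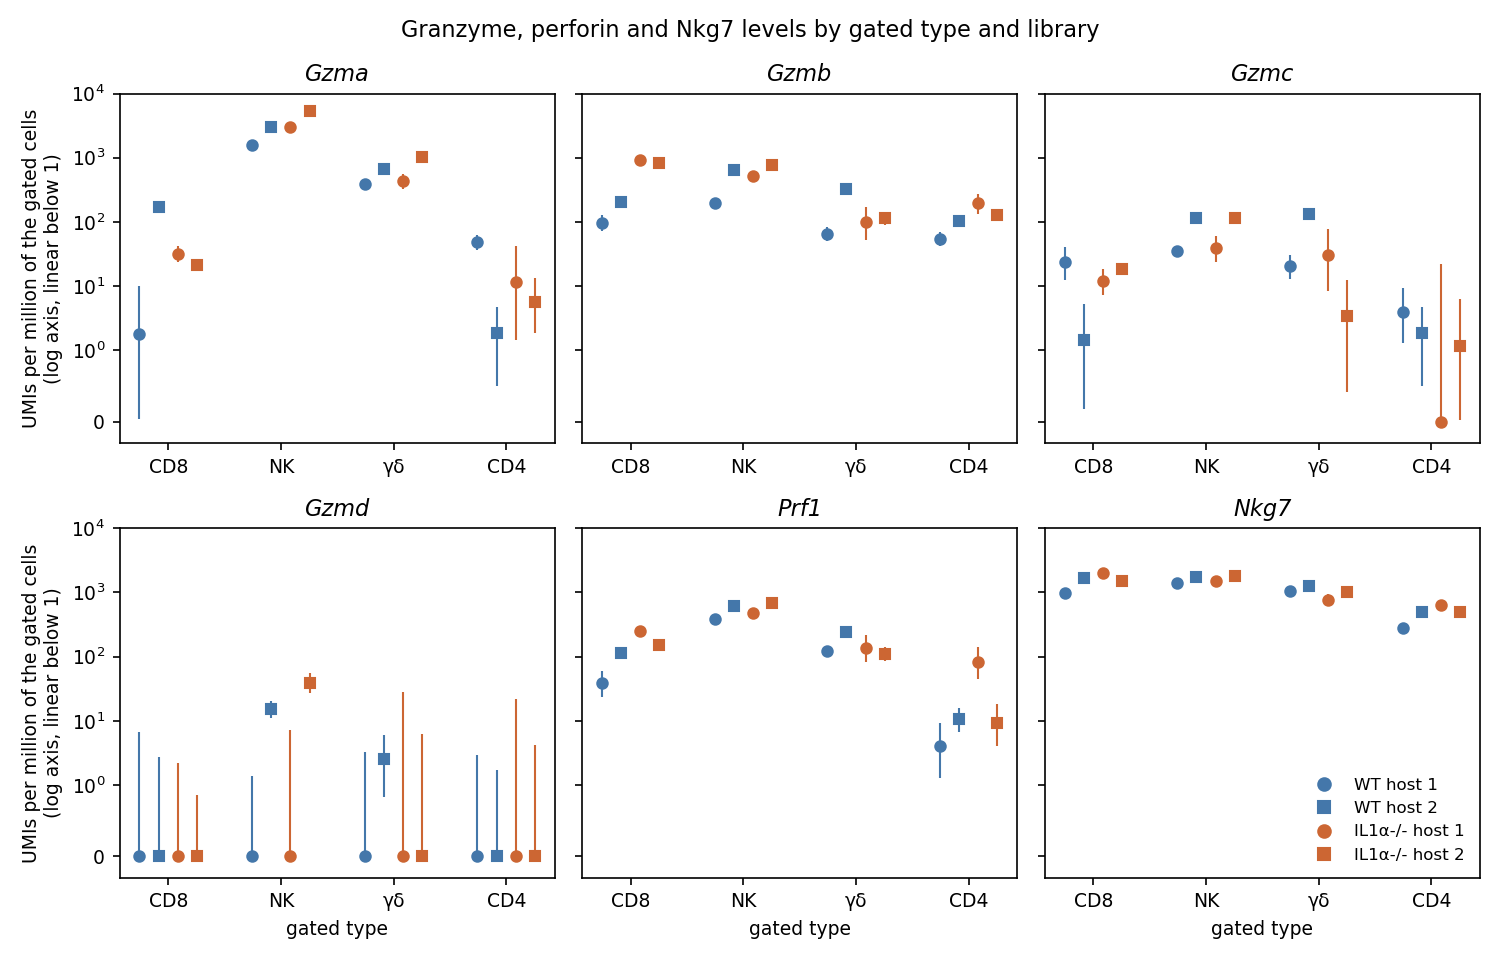
CPM of the gated cells (log axis, linear below 1) for 6 members in 4 gated types; each point is 1 library and bars are exact 95% Poisson intervals, which cover counting error only. Gzma was highest in the NK-like gate in each library, and Gzmb of the CD8 T-like gate was 915 and 837 CPM in IL1α-/- hosts against 96.8 and 206 CPM in WT hosts.

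Gzmb was found in both NK-like and CD8 T-like cells. It stood at 199 and 643 CPM in the NK-like cells of WT hosts and at 520 and 778 CPM in those of IL1α-/- hosts. In CD8 T-like cells it was 96.8 and 206 CPM in WT and 915 and 837 CPM in IL1α-/-. NK-like cells were the higher in both WT hosts and CD8 T-like cells in both IL1α-/- hosts, and over the 4 libraries the difference was 0.12 (log2, SE 0.39, adjusted p = 0.879, edgeR). Gamma-delta T-like cells carried 65.5 and 331 CPM in WT and 99.2 and 114 CPM in IL1α-/-. They lay below CD8 T-like cells by 1.40 (SE 0.44, adjusted p = 0.067) and below NK-like cells by 1.52 (SE 0.41, adjusted p = 0.0549), neither past the threshold of 0.05. CD4 T-like cells had 54.3 and 104 CPM in WT and 195 and 129 CPM in IL1α-/-.

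Perforin was highest in the NK-like gate in each library. Prf1 stood at 381 and 620 CPM there in WT and at 468 and 676 CPM in IL1α-/-. CD8 T-like cells had 38.4 and 112 CPM in WT and 246 and 150 CPM in IL1α-/-, and gamma-delta T-like cells 121 and 244 against 137 and 111 CPM. The last pair of types did not differ beyond their spread (log2 difference 0.30, SE 0.31, adjusted p = 0.641, edgeR). CD4 T-like cells lay between 3.99 and 82.9 CPM.

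Nkg7 was the member found most evenly. It stood at 1378 to 1801 CPM in the 4 NK-like sums, at 984 to 2009 CPM in the CD8 T-like sums, at 763 to 1277 CPM in the gamma-delta T-like sums and at 279 to 628 CPM in the CD4 T-like sums. NK-like and CD8 T-like cells differed by -0.02 (log2, SE 0.15, adjusted p = 0.955), and gamma-delta T-like cells lay 0.56 below CD8 T-like cells (log2 difference -0.56, SE 0.16, adjusted p = 0.0381). That last call passed without WT 1 (adjusted p = 0.0111) and did not pass without WT 2 (-0.65, adjusted p = 0.0624), IL1α-/- 1 (-0.31, adjusted p = 0.192) or IL1α-/- 2 (-0.57, adjusted p = 0.123).

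Gzmc and Gzmd were found in few cells that held many copies. Gzmc stood at 34.8 and 115 CPM in the NK-like cells of WT hosts and at 39.4 and 114 CPM in those of IL1α-/- hosts. In the NK-like gate of IL1α-/- 2, a single cell held 91 of the 97 Gzmc UMIs, and without it the level was 7.11 CPM. Gzmc was higher in NK-like than in CD8 T-like cells (11.9 to 23.7 CPM in 3 libraries and 1.48 CPM in WT 2) by 2.33 (SE 0.60, adjusted p = 0.011, edgeR), with an adjusted p of 0.198 in DESeq2. Gzmd had 92 UMIs in called cells, 49 of them in 7 NK-like cells of WT 2 and 33 in 3 NK-like cells of IL1α-/- 2. The CD8 T-like gate had no Gzmd UMI. Pooled over the libraries, NK-like cells were at least 29.6-fold higher than the level that 3 UMIs would give in the CD8 T-like gate. That bound rests on the same pair of libraries, being 9.14-fold without IL1α-/- 2 and 17.7-fold without WT 2. The cell with the most Gzmc in the NK-like gates of WT 2 and IL1α-/- 2 was also the cell with the most Gzmd, at 31 and 26 UMIs, and it had no Gzma UMI.

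Gzmk and Gzmm were sparse. Gzmk, a granzyme A-like protease known from memory CD8 T cells, had 60 UMIs in called cells, and 40 of these were in the CD8 T-like gate, spread as 2, 14, 9 and 15 UMIs over WT 1, WT 2, IL1α-/- 1 and IL1α-/- 2. It passed the filter on low counts in no type. Gzmm had 115 UMIs, with 23 in the CD8 T-like, 28 in the NK-like and 24 in the gamma-delta T-like gate, and 10 in fibroblast-gated cells. In IL1α-/- hosts it stood at 2.49 and 3.38 CPM in fibroblast-gated cells, above the 1.19 and 1.64 CPM of CD8 T-like cells. In WT hosts it stood at 0 and 0.79 CPM in fibroblast-gated and 7.31 and 7.40 CPM in CD8 T-like cells.

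Cells of other lineages gave the background. Macrophage-gated and fibroblast-gated cells had at most 8.56 CPM of any member. Cells were thinned to 1000 UMIs, so that shares of positive cells are compared at 1 depth. At that depth between 0% and 0.990% of macrophage-gated and fibroblast-gated cells had a Gzma, Gzmb or Prf1 UMI.

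Within single cells, CD8 T-like and NK-like cells carried different mixtures. Among thinned NK-like cells 43.2% and 59.2% had a Gzma UMI in WT and 59.7% and 77.2% in IL1α-/-. Of the NK-like cells with a Gzmb UMI, 85.2% to 93.2% in each library also had a Gzma UMI. Of the CD8 T-like cells with a Gzmb UMI, 1.79% and 1.56% also had Gzma in the IL1α-/- hosts, with 279 and 257 such cells. In WT hosts the same share was 0% of 7 cells and 38.2% of 34 cells. CD8 T-like cells of WT 2 stood apart from the other libraries: they had 235 Gzma UMIs in 33 cells, 46.8% of them in 5 cells. Perforin was found more often beside granzyme B: Prf1 was detected in 43.4% to 66.5% of NK-like cells with Gzmb and in 22.4% to 32.2% of those without.

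**Figure D2:**
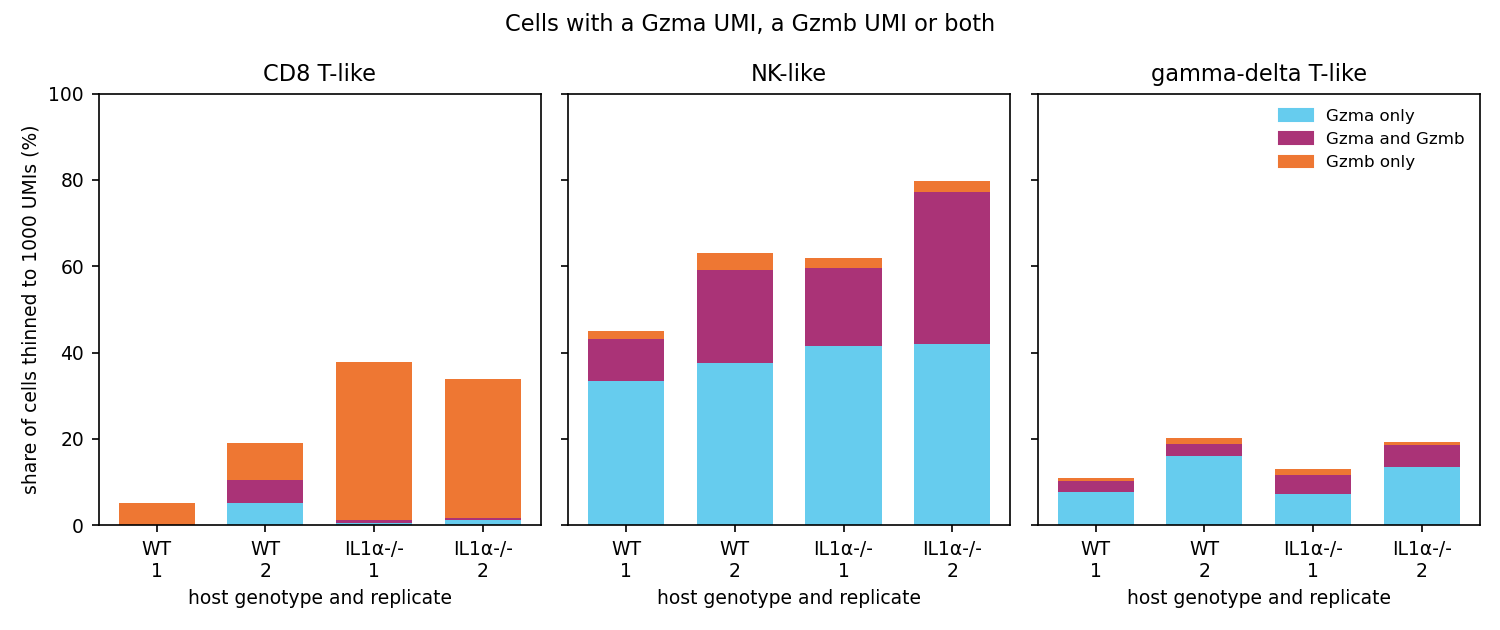
Share of cells (percent, after thinning each cell to 1000 UMIs) with a Gzma UMI, a Gzmb UMI or both, for each host and gated type. Gzmb alone made up 36.6% and 32.1% of CD8 T-like cells in IL1α-/- hosts and 5.22% and 8.50% in WT hosts, where WT 2 also had 5.26% with Gzma alone and 5.26% with both, while NK-like bars are mostly Gzma with or without Gzmb.

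With host interleukin-1α absent, CD8 T-like cells held more Gzmb. The WT sums had 53 and 278 Gzmb UMIs, or 96.8 and 206 CPM, with a mean of 151 ± 76.9 CPM (SD, n = 2). The IL1α-/- sums had 1543 and 3569 UMIs, or 915 and 837 CPM, with a mean of 876 ± 55.2 CPM (SD, n = 2). Both IL1α-/- hosts lay above both WT hosts, as did 26.3% of the 8487 genes tested. The difference was 2.44 on the log2 scale (SE 0.32, adjusted p = 0.00597, edgeR), a 5.43-fold change, and Gzmb was the 1 member of 6 tested that passed, where 1.77% of all genes did.

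More CD8 T-like cells were Gzmb-positive, too. After thinning, 5.22% (95% exact interval 2.13% to 10.5%) and 13.8% (9.72% to 18.7%) of them had a Gzmb UMI in WT hosts. In IL1α-/- hosts the shares were 37.3% (33.8% to 40.9%) and 32.7% (29.4% to 36.1%). Unthinned shares were 10.2% and 22.2% against 46.3% and 53.4%. Thinned cells with 4 or more Gzmb UMIs made up 0% and 2.43% in WT and 7.35% and 5.72% in IL1α-/-. The intervals cover counting error only, and the exact permutation p over the 4 tumours was 0.33, its smallest value.

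The Gzmb call in CD8 T-like cells depends on both WT tumours, of which the smaller gave 137 cells, and on depth, since with each cell thinned to 1000 UMIs the change was 1.79 (adjusted p = 0.0591, edgeR). Without WT 1 the change was 2.03 (adjusted p = 0.21) and without WT 2 it was 3.13 (adjusted p = 0.0807), and no gene and 4 genes passed in those fits. The makeup of the gate differed as well: 48.9% and 42.3% of CD8 T-like cells in WT and 10.9% and 25.6% in IL1α-/- had a UMI of Ccr7, Lef1 or S1pr1, genes of naive and recirculating T cells. Leaving those cells out, a choice made after seeing the data, gave 160.3 and 357 CPM of Gzmb in WT and 976 and 946 CPM in IL1α-/-. The change was then 1.80, smaller than over all cells, with an adjusted p of 0.0433 that lay close to the threshold, and 57 genes passed against 150 over all cells. An earlier version of this exclusion, whose values are not reported here, did not keep the call, so the call is borderline to this choice. Foxp3, of regulatory T cells, stood at 34.7 and 35.5 CPM in WT and at 7.71 and 8.68 CPM in IL1α-/-. Requiring both CD8 chains and no Foxp3 UMI, likewise chosen after seeing the data, gave 2.40 (adjusted p = 0.0156). The summed level of the 7 NK marker genes, each detected in each library, was 455 and 667 CPM in WT and 1519 and 717 CPM in IL1α-/-, and that of 6 macrophage genes was 9.13 and 33.3 against 62.3 and 23.7 CPM. Their part in the result was not tested.

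The other members did not pass in CD8 T-like cells. Prf1 had 38.4 and 112 CPM in WT and 246 and 150 CPM in IL1α-/-, a log2 difference of 1.25 (SE 0.40, adjusted p = 0.175, edgeR). Both IL1α-/- sums lay above both WT sums, as was the case for 26.3% of all genes tested. The Gzma difference was -1.98 (SE 0.81, adjusted p = 0.299), and it changed sign to 3.74 without WT 2. Gzmm, at 4, 10, 2 and 7 UMIs, gave -2.30 (SE 0.63, adjusted p = 0.109). Nkg7 gave 0.35 (SE 0.27, adjusted p = 0.62) and Gzmc 0.74 (SE 0.77, adjusted p = 0.725). Gzmf, a neighbour in the chromosome 14 row, had 0 and 1 UMIs in WT and 46 and 33 UMIs in IL1α-/- (log2 difference 4.72, SE 1.15, adjusted p = 0.0728).

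**Figure D3:**
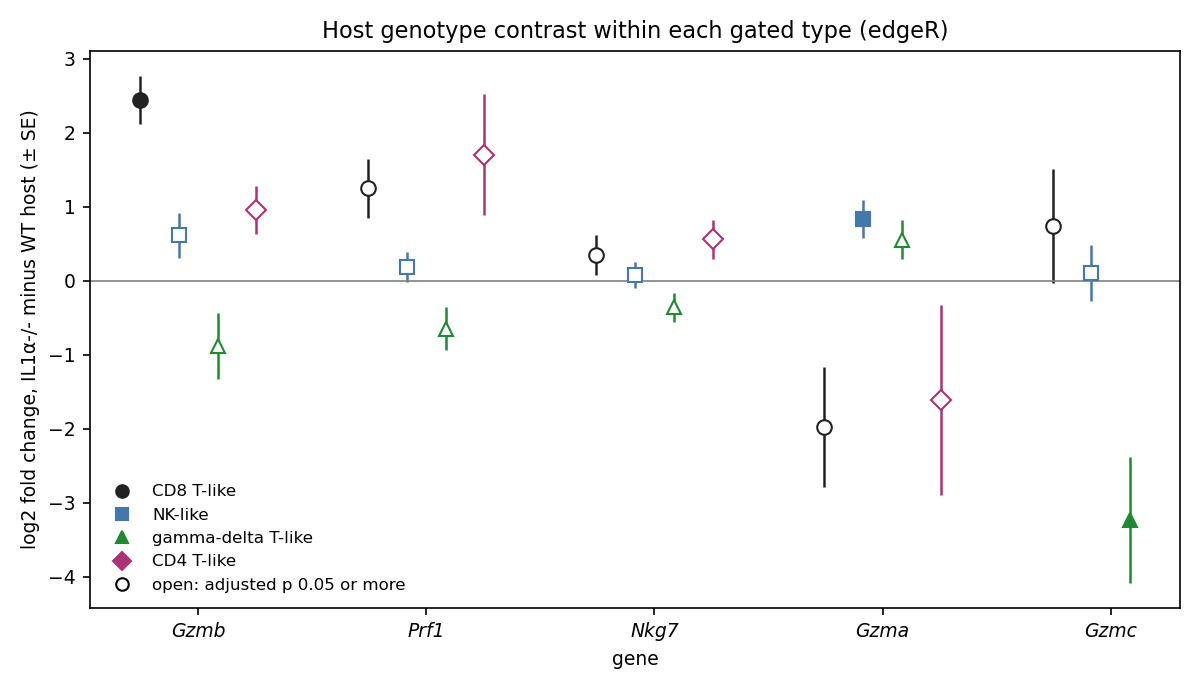
Log2 fold change between IL1α-/- and WT hosts (± SE, 2 libraries per genotype, edgeR) for 5 members in each gated type where they passed the filter on low counts; filled symbols passed an adjusted p of 0.05. The filled points are Gzmb in CD8 T-like, Gzma in NK-like and Gzmc in gamma-delta T-like cells.

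In NK-like cells Gzma rose in IL1α-/- hosts by 0.83 (log2, SE 0.26, adjusted p = 0.0275, edgeR), 1.78-fold. It was the 1 member of 6 that passed, while 15.9% of all 8879 genes did, so a call is common in this comparison. The groups overlapped narrowly, with 1566 and 3052 CPM in WT and 3051 and 5278 CPM in IL1α-/-. DESeq2 gave 0.83 with an adjusted p of 0.563, thinned cells gave 0.52 (adjusted p = 0.456), and the fits without WT 1 and without IL1α-/- 2 gave 0.41 (adjusted p = 0.238) and 0.37 (adjusted p = 0.399). An NK-like gate without gamma-delta chain UMIs gave 0.82 (adjusted p = 0.108), and leaving out cells with a Ccr7, Lef1 or S1pr1 UMI gave 0.84 (adjusted p = 0.0554). Gzmb had a difference of 0.61 (SE 0.30, adjusted p = 0.181), Prf1 of 0.19 (SE 0.20, adjusted p = 0.594), Nkg7 of 0.08 (SE 0.18, adjusted p = 0.819), Gzmc of 0.10 (SE 0.38, adjusted p = 0.89) and Gzmd of 1.502 (SE 0.77, adjusted p = 0.203).

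In gamma-delta T-like cells Gzmc was lower in IL1α-/- hosts by edgeR, and that call rests on very few cells. The sums held 23 and 262 Gzmc UMIs in WT and 4 and 2 UMIs in IL1α-/-, or 20.6 and 134 against 30.5 and 3.41 CPM, so the groups overlapped. The log2 difference was -3.23 (SE 0.85, adjusted p = 0.0218), 1 of 5 members tested, where 5.45% of 7272 genes passed. A single cell of WT 2 held 212 of the 262 UMIs, and without that cell the level there was 25.8 CPM. The same cell held 435 of the 648 Gzmb UMIs of that sum, beside 3 Trdc, 2 Cd3e and 20 Ncr1 UMIs. DESeq2 gave an adjusted p of 0.709, and without WT 2 the change was -1.17 (adjusted p = 0.7945), without IL1α-/- 2 it was -1.53 (adjusted p = 0.175). The summed level of the 7 NK marker genes in the gamma-delta T-like gate was 3089 and 3207 CPM in WT and 2374 and 2238 CPM in IL1α-/-, and that of the 4 gamma-delta chain genes 1301 and 1224 against 2160 and 1481 CPM. Their part in the result was not tested. The remaining members did not pass: Gzma had 0.55 (SE 0.27, adjusted p = 0.257), Gzmb -0.89 (SE 0.45, adjusted p = 0.288), Prf1 -0.65 (SE 0.29, adjusted p = 0.219) and Nkg7 -0.36 (SE 0.20, adjusted p = 0.341).

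No member passed in CD4 T-like cells, where 3.50% of 7832 genes did. Gzmb, at 54.3 and 104 CPM in WT and 195 and 129 CPM in IL1α-/-, had a log2 difference of 0.96 (SE 0.32, adjusted p = 0.12, edgeR), and Prf1, on 5, 23, 14 and 8 UMIs, 1.70 (SE 0.81, adjusted p = 0.277). Both WT sums lay below both IL1α-/- sums for Gzmb, as was the case for 22.4% of genes. Without cells that held a Ccr7, Lef1 or S1pr1 UMI the Gzmb difference was 1.69 (adjusted p = 0.00627), past the threshold. That exclusion was chosen after seeing the data. In IL1α-/- 1 all 33 Gzmb UMIs of the gate lay in 8 cells, 30 of them in 5, and the exclusion kept 32. Over the whole gate, shares of cells with a Gzmb UMI overlapped between genotypes. They were 7.33% and 12.6% in WT against 6.61% and 7.57% in IL1α-/- unthinned, and 3.60% and 7.24% against 6.02% and 6.04% after thinning.

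Whether the host genotype acted differently in different types was tested as an interaction in the 12-sum model. Between NK-like and CD8 T-like cells 5.22% of genes passed. The genotype change of Gzmb was smaller in NK-like than in CD8 T-like cells by 1.88 (log2 difference -1.88, SE 0.25, adjusted p = 2.29e-05), and that of Prf1 by 1.09 (-1.09, SE 0.29, adjusted p = 0.024). Between gamma-delta and CD8 T-like cells, where 2.38% passed, the Gzmb difference was -3.32 (SE 0.30, adjusted p = 1.67e-07) and the Prf1 difference -1.89 (SE 0.35, adjusted p = 0.00206). With each library left out in turn, the Gzmb difference ran from -2.33 to -1.46 against NK-like cells and from -3.74 to -2.46 against gamma-delta T-like cells. Otherwise the interactions were rerun only with another scaling of library sizes. Thinned cells, DESeq2, other gates and leaving out Ccr7, Lef1 or S1pr1 cells were not tried for them. Prf1 between NK-like and CD8 T-like cells did not pass without WT 1 (-0.90, adjusted p = 0.085) or without IL1α-/- 1 (-0.53, adjusted p = 0.166). The Gzma interactions, 2.79 and 2.43, turned to -2.28 and -2.78 without WT 2, the library whose CD8 T-like cells held 235 of that type's 380 Gzma UMIs, and the one against gamma-delta T-like cells did not pass without IL1α-/- 2 (1.19, adjusted p = 0.489). Between NK-like and gamma-delta T-like cells 0.0111% of genes, which is 1 gene, passed and no member did.

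The granule pathway around the members was read from 6 lists of related genes. Some serpins, a family with inhibitors of granzymes, passed with the host genotype in 3 of the types. In NK-like cells, where 15.9% of all genes passed, 3 of 5 rose: Serpinb9, the granzyme B inhibitor, by 1.52 (SE 0.16, adjusted p = 7.56e-07, edgeR), Serpinb9b by 2.86 (SE 0.31, adjusted p = 9.33e-07) and Serpinb6b by 1.17 (SE 0.16, adjusted p = 1.90e-05). In gamma-delta T-like cells, where 5.45% of all genes passed, 2 of 4 tested rose, Serpinb9 by 1.44 and Serpinb6b by 1.12. In CD4 T-like cells, where 3.50% passed, 2 of 4 rose, Serpinb9 by 2.73 and Serpinb1a by 2.14. In CD8 T-like cells, where 1.77% passed, none of 3 tested did, though all 3 were higher in IL1α-/-. Serpinb9 there was just short of the threshold, at 1.09 (SE 0.24, adjusted p = 0.0504, edgeR). Serpinb6a passed in no type, at -0.63 in NK-like, -0.75 in gamma-delta, -1.29 in CD4 and 0.59 in CD8 T-like cells. Between types, Serpinb9 was higher in NK-like than in CD8 T-like cells by 2.72 (SE 0.12, adjusted p = 2.93e-10).

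The counts of the other lists are read against the same shares of all genes, 15.9% in NK-like, 5.45% in gamma-delta, 3.50% in CD4 and 1.77% in CD8 T-like cells. Of 8 genes of granule transport and fusion, 1 passed in each type, in NK-like cells a smaller share than of all genes: Lyst, a regulator of lysosome size, by 1.58 in NK-like, 1.61 in gamma-delta and 1.97 in CD4 T-like cells, and Sytl2, which tethers granules, by 1.26 in CD8 T-like cells (adjusted p = 0.0473). Of 8 granule content and processing genes, among them Srgn, Ctsc and Lamp1, none passed in any type in the genotype comparison. Of 4 other granzymes, Gzme passed in NK-like cells on 1 and 4 UMIs in WT and 5 and 5 UMIs in IL1α-/-. Of 5 death ligand and cytokine genes, Fasl rose and Tnfsf10 and Lta fell in NK-like cells, Tnfsf10 and Lta fell in gamma-delta T-like cells, and Fasl rose in CD4 T-like cells. Of 9 tested genes of transcription and cytokine control, Id2 rose in CD8 T-like cells by 1.26 (SE 0.24, adjusted p = 0.0279). In NK-like cells Stat4, Prdm1 and Il2rb rose and Id2 fell, in gamma-delta T-like cells Stat4 and Prdm1 rose and Eomes fell, and in CD4 T-like cells Stat4, Runx3, Tbx21 and Il2rb rose.

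The genes whose levels ran most like a member's were sought over the 16 sums of 4 types and 4 libraries, among 7527 genes. The sums of 1 library share its depth, so these correlations are a description. Prf1 ran closest to Klrk1, an activating NK receptor (Pearson r = 0.96), and Nkg7 closest to Prf1 (r = 0.90). Gzma ran closest to Kcnip3, Klra4 and Scimp (r = 0.93 each), Gzmb to Ybx3 (r = 0.85), Sytl3 (r = 0.80) and Akt2 (r = 0.78), and Gzmc to Sipa1, Zyx and Nrarp (r = 0.84 each).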

How the data were processed

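Tumours from 4 mice, 2 per host genotype, each gave 1 droplet library of 3′ single-cell RNA-seq. The deposited matrices hold raw UMI counts per feature and barcode, made by the authors with Cell Ranger 3.1.0 on a joint human and mouse reference (mm10 for mouse), per the file headers and the submitters' processing notes, with empty droplets included. Library totals were 23464120 and 29001333 UMIs (WT) and 6705368 and 15298532 UMIs (IL1α-/-).

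Mouse counts were used. Barcodes needed 500 UMIs, 250 genes, at most 20% mitochondrial UMIs and, below 5000 UMIs, a profile apart from that of barcodes with up to 100 UMIs (false discovery rate 0.001, 10000 simulations). Scrublet scores (scanpy 1.11.5) removed 83 to 128 doublets per library. Gates asked for 1 UMI of the positive marker and at most 2 UMIs of other lineages. Macrophage-gated and fibroblast-gated cells had at least 5 UMIs of their markers and no UMI of a CD3 chain, Ncr1 or Klrb1c. UMIs were summed per gate and library, and tested with edgeR 4.0.16 (filterByExpr, TMM, quasi-likelihood, Benjamini-Hochberg, threshold 0.05), with DESeq2 1.42.0 as an alternative, in R 4.3.3. The fits were checked on simulated data. Shares of positive cells were compared after thinning each cell to 1000 UMIs, leaving out shallower cells. Intervals are exact at 95% and cover counting error only, and the limit for no UMI is 3 UMIs.

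Replicates are separate tumours, so p-values of the genotype fits measure the spread between 2 tumours per group. Those of the type contrasts and interactions measure how differences between types within a library vary between libraries. Each SE given with an edgeR value is the size of the log2 value divided by the square root of its F statistic. A sum can be dominated by 1 cell, and in sums fewer expressing cells and less RNA per cell cannot be told apart. The members and gene lists were chosen with earlier results of these data known. All members were reported, other list genes by counts with values for those past the threshold, and for each member the 3 genes with the highest Pearson correlation. A planned comparison of cells within each type, and its alternatives, is not reported here.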

Additional observations from a re-analysis of the deposited data

Results flagged for a closer look

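The genotype change differed between types for 8 member and type pairs, by a test of the difference itself (edgeR, interaction over 12 sums, adjusted over 8988 genes). For each pair of types 6 members were tested. Of all genes, 5.22% passed between NK-like and CD8 T-like cells and 2.38% between gamma-delta and CD8 T-like cells. Between NK-like and gamma-delta T-like cells 0.0111% of all genes and no member passed. Between NK-like and CD8 T-like cells the differences were 2.79 for Gzma (SE 0.49, adjusted p = 7.45e-04), -1.88 for Gzmb (SE 0.25, adjusted p = 2.29e-05) and -1.09 for Prf1 (SE 0.29, adjusted p = 0.024), on the log2 scale. Between gamma-delta and CD8 T-like cells they were 2.43 for Gzma (SE 0.51, adjusted p = 0.00755), -3.32 for Gzmb (SE 0.30, adjusted p = 1.67e-07), -4.49 for Gzmc (SE 1.13, adjusted p = 0.0292), -1.89 for Prf1 (SE 0.35, adjusted p = 0.00206) and -0.75 for Nkg7 (SE 0.19, adjusted p = 0.0347).

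With each library left out in turn, the Gzmb differences ran from -2.33 to -1.46 (NK-like) and from -3.74 to -2.46 (gamma-delta). The Prf1 difference between gamma-delta and CD8 T-like cells ran from -2.33 to -1.62. Thinned cells, DESeq2 and other gates were not tried for the interactions. Both Gzma differences changed sign without WT 2, to -2.28 and -2.78, and that between gamma-delta and CD8 T-like cells did not pass without IL1α-/- 2 (1.19, adjusted p = 0.489). The Gzmc difference ran from -7.47 to -0.80 and the Nkg7 difference from -1.34 to -0.36, with highest adjusted p-values of 0.847 and 0.241. The Gzmc sum of gamma-delta T-like cells in WT 2 held 262 UMIs, 212 of them in 1 cell.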

How the results depend on the processing

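The genotype change of Gzmb in CD8 T-like cells kept its direction under each alternative run and its call under 11 of the 14 whose values are given. The other 2 called genotype results also kept their direction, Gzma in NK-like cells with its call under 8 of 14 and Gzmc in gamma-delta T-like cells under 7 of 12. Gzmb in CD8 T-like cells did not pass with cells thinned to 1000 UMIs (1.79), and without cells that hold a Ccr7, Lef1 or S1pr1 UMI its adjusted p was 0.0433, close to the threshold, while an earlier version of that exclusion, not reported here, did not keep the call. Gzma in NK-like cells did not pass with DESeq2 (0.83), thinned cells (0.52), the gate without gamma-delta chain UMIs (0.82) or without Ccr7, Lef1 or S1pr1 cells (0.84), nor Gzmc in gamma-delta T-like cells with DESeq2 (-2.37), a gate of 2 UMIs (-3.16) or without Ccr7, Lef1 or S1pr1 cells (-1.30). DESeq2 lost the type calls of Gzmc (2.00) and Gzmd (5.39) between NK-like and CD8 T-like cells and of Gzma (2.26) and Gzmd (3.03) between NK-like and gamma-delta T-like cells.

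Counts of called genes moved with thinning from 150 to 84 in CD8 T-like, from 1414 to 193 in NK-like, from 396 to 153 in gamma-delta and from 274 to 92 in CD4 T-like cells by genotype, from 1984 to 928 between NK-like and CD8 T-like and from 745 to 307 between gamma-delta and CD8 T-like cells. With no low-count filter they were 560 (CD8 T-like) and 542 (CD4 T-like) by genotype, 1212 between gamma-delta and CD8 T-like, and 569 between NK-like and gamma-delta T-like. DESeq2 called 440, 128 and 134 genes by genotype in NK-like, gamma-delta and CD4 T-like cells. A gate of 2 UMIs gave 254 (gamma-delta) and 166 (CD4 T-like), cells with at least 1000 UMIs 152 (CD4 T-like), the gate without gamma-delta chains 605 (NK-like), and leaving out Ccr7, Lef1 or S1pr1 cells 57 (CD8 T-like) and 176 (CD4 T-like). Without Ccr7, Lef1 or S1pr1 cells Gzmc in CD8 T-like cells went from 0.74 to -0.10 and Gzmb in gamma-delta T-like cells from -0.89 to 0.047. Other changes of sign were in thinned Prf1 (-0.11) and Nkg7 (-0.0032) in NK-like cells, and thinned Prf1 between gamma-delta and CD8 T-like cells (-0.092). Shares of positive cells changed sign, in percentage points, to 2.01 (NK-like Prf1), 2.91 (NK-like Nkg7) and -0.33 (gamma-delta Gzma) at 500 UMIs, and to -4.56 (gamma-delta Gzma), -1.98 (gamma-delta Gzmb) and -2.86 (CD4 T-like Gzmb) unthinned. The cause was not tested.

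Over all genes tested, same-numbered libraries did not deviate together (correlations of -0.0052 in CD8 T-like, 0.065 in NK-like, 0.091 in gamma-delta and 0.016 in CD4 T-like cells), so the numbers were not taken as pairs. In NK-like cells, though, each of the 6 members tested was higher in replicate 2 than in replicate 1 in both genotypes. Gzma stood there at 3052 against 1566 CPM in WT and at 5278 against 3051 CPM in IL1α-/-. In CD8 T-like cells Gzma, Gzmb, Prf1 and Nkg7 were higher in replicate 2 in WT and lower in IL1α-/-. Whether the collection day played a part was not tested. A fit with a replicate block changed the genotype counts to 62, 1763, 708 and 366 in CD8 T-like, NK-like, gamma-delta and CD4 T-like cells, of which 56, 1414, 396 and 254 were also called without it, and Gzmb in CD8 T-like cells was 2.52 (adjusted p = 0.0357, edgeR).

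Leaving out 1 library in turn leaves 1 library in a group, which is then assumed to vary like the others. Counts of called genes then ran from 0 to 621 for CD8 by genotype, 794 to 1214 for NK by genotype, 151 to 466 for γδ by genotype, 0 to 253 for CD4 by genotype, 1291 to 1732 for NK − CD8, 388 to 529 for γδ − CD8, 187 to 222 for NK − γδ, 240 to 608 for interaction NK − CD8, 125 to 325 for interaction γδ − CD8 and 3 to 15 for interaction NK − γδ. Log2 values ran from -2.81 to 3.74 for Gzma, CD8 by genotype, 2.03 to 3.13 for Gzmb, CD8 by genotype, -0.63 to 3.32 for Gzmc, CD8 by genotype, 0.37 to 1.40 for Gzma, NK by genotype, -0.017 to 1.70 for Gzmb, NK by genotype, -0.99 to 1.24 for Gzmc, NK by genotype, -7.12 to 7.92 for Gzmd, NK by genotype, -0.15 to 0.58 for Prf1, NK by genotype, -0.10 to 0.24 for Nkg7, NK by genotype, -0.37 to 0.96 for Gzma, γδ by genotype, -1.61 to 0.75 for Gzmb, γδ by genotype, -4.55 to -1.17 for Gzmc, γδ by genotype, -0.24 to 0.54 for Gzmb, NK − CD8, -0.14 to 0.15 for Nkg7, NK − CD8, -0.079 to 2.68 for Gzmc, γδ − CD8, -0.079 to 0.67 for Prf1, γδ − CD8, -0.77 to -0.31 for Nkg7, γδ − CD8, 2.12 to 2.43 for Gzma, NK − γδ, -0.079 to 1.80 for Gzmc, NK − γδ, 3.28 to 3.31 for Gzmd, NK − γδ, -2.28 to 3.38 for Gzma, interaction NK − CD8, -3.87 to 1.81 for Gzmc, interaction NK − CD8, -1.78 to -0.53 for Prf1, interaction NK − CD8, -0.68 to 0.033 for Nkg7, interaction NK − CD8, -2.78 to 3.15 for Gzma, interaction γδ − CD8, -7.47 to -0.80 for Gzmc, interaction γδ − CD8 and -1.34 to -0.36 for Nkg7, interaction γδ − CD8. Shares of positive cells ran, in percentage points, from -9.1 to 1.43 for CD8 Gzma, -7.85 to 6.11 for NK Prf1, -7.64 to 2.49 for NK Nkg7, -3.58 to 4.85 for γδ Gzma, -0.15 to 0.521 for CD4 Gzma and -1.2 to 2.43 for CD4 Gzmb.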

Other observations

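The receptor Klrd1, one of the NK markers, stood at 152 and 330 CPM in the CD8 T-like cells of WT hosts and at 1152 and 481 CPM in those of IL1α-/- hosts. In WT 1, the 61 Gzma UMIs of CD4 T-like cells were found in 1 cell.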
